A study of [Candida] boidinii with 12 samples.

Results

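The 190 genes described here fell on methanol in the lactic acid-producing yeast strain LA001-14 while their wild-type change stayed within 0.8 of the median gene's on the log2 scale. They were chosen by 2 measured values from the 5034 genes with a mean of at least 50 reads over all 12 libraries, of 5712 rows in the files, and make up 3.77% of those 5034. For each gene, L is the log2 ratio of methanol to glucose in LA001-14 and W the same ratio in wild type. Both were taken from group means of CPM (the count scaled to the library total) with 1 CPM added, and both had their median over the 5034 genes subtracted. A member has L at or under -1 and W between -0.8 and 0.8. The introduced lactate dehydrogenase transcript, LDH, was left out of the choice.

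RNA sequencing covered 4 groups of the yeast [Candida] boidinii with 3 libraries each. Wild-type strain CICC#33029 and LA001-14 each spent 6 h in YPD, with glucose at 2% (w/v), or in YPM, with methanol at 2% (w/v). LA001-14 derives from that wild type and carries 2 cassettes at random places in its chromosomes, PENO1-BtL-LDH-TTEF2 for lactate dehydrogenase and PTDH3-KanR-TTEF2 for kanamycin resistance. The labels do not state the insertion sites, or whether the strain is a single clone. LDH had between 16132 and 76402 reads in the 6 LA001-14 libraries and at most 1 read in any wild-type library.

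C. boidinii is a methylotrophic yeast, able to use methanol as its carbon source. Methanol is oxidised in peroxisomes by alcohol oxidase, which yields formaldehyde and hydrogen peroxide, and the formaldehyde is either assimilated or oxidised further for energy. Genes of this pathway are known to be held low by glucose and raised by methanol in such yeasts. Lactate dehydrogenase draws on pyruvate, the end product of glycolysis, and turns it into lactate. The files give each gene an identifier and a coding length but no name, so no member is assigned a function, a pathway or a place in the genome here. For the same reason only 8 members are identified below.

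Libraries held 8045977 to 14107813 counted reads. In the wild-type glucose group replicate 1 differed most from the others, with a chi-square per degree of freedom of 25.03 and 32.3 against the other two replicates, which gave 5.59 between them, while pairs in the other 3 groups gave 4.03 to 13.3. The number of members and the counts of members called, joined by call or standing apart by library were also made without that library. The members were read deeply for the most part: 125 of the 190 had at least 100 reads in every library, 2 had under 10 in some library, and the median of their mean counts was 392.

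**Figure D1:**
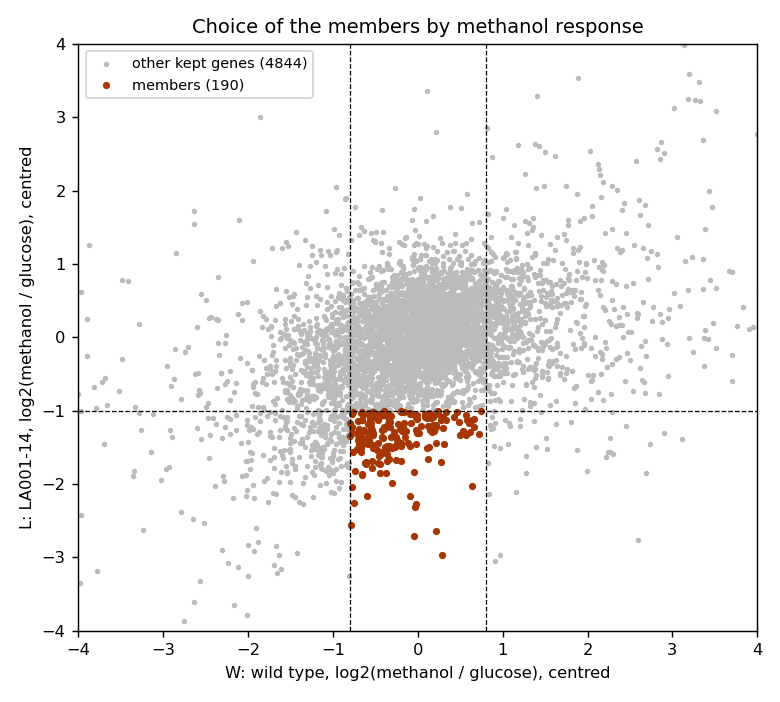
Methanol response of each of the 5034 genes in wild type (W, horizontal axis, log2) and in LA001-14 (L, vertical axis, log2), each point a gene; dashed lines mark the limits of the choice. The 190 members, in red, fill the box at the bottom centre, 142 of them left of 0, and 85 genes lie outside the axes.

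Of the 190 members, 48 lay within 0.1 of the limit on L, and most leaned downwards in wild type too. L ranged from -2.97 to -1.004 with a median of -1.28. It was at or under -1.5 for 45 members, at or under -2 for 11, and between -1 and -1.1 for those 48. W ranged from -0.80 to 0.75 with a median of -0.33, and it was under 0 for 142 members and over 0 for 48. The 3 members nearest to the L limit had -1.004, -1.004 and -1.006, and the nearest genes outside it -0.993, -0.993 and -0.990. At the lower W limit the nearest member stood at -0.80 (-0.7996 unrounded) and the nearest gene outside at -0.81. At the upper limit these values were 0.75 and 0.82. The boundary on wild type is therefore narrow on its lower side: 298 genes had an L of -1 or less and a W of -0.8 or less, and only 47 had such an L with a W of 0.8 or more.

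The name "lowered in LA001-14 only" holds by the limits of the rule but not by the test in wild type. The sizes of the fall overlapped between strains: among members the wild-type log2 change reached -0.99, and the smallest fall in LA001-14 was -0.94. Counts were tested with edgeR's quasi-likelihood method over 5466 genes, after scaling libraries by TMM, and a gene is called when its p, adjusted by Benjamini-Hochberg over those genes, is under 0.05. Because the rule used these contrasts, the counts in this paragraph describe the choice and test nothing. In wild type 91 of the 190 members were called lower on methanol, 21 higher and 78 neither, while 35.3% of all genes tested were called lower and 35.0% higher. The median log2 change of those 91 members was -0.58, with a range of -0.99 to -0.19. In LA001-14 all 190 members were called lower on methanol, 168 of them by at least 2-fold, against 29.7% and 11.3% of all genes tested. The response differed between the strains, by the interaction term, for 169 members, all lower in LA001-14, where 27.9% of all genes were called in that direction. The remaining 21 members were not called in the interaction, which had a median of -0.51 on the log2 scale there, and 17 of these 21 were called lower in wild type.

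The choice was also made on part of the libraries and read in the rest. With replicate 1 of each group set aside, 198 genes met the rule in the other 8 libraries, and in the 4 libraries set aside all 198 had an L under 0, 165 had an L at or under -1 and 128 (64.6%) met the whole rule. With replicate 2 aside 181 genes were chosen, of which all had an L under 0, 146 kept an L at or under -1 and 124 (68.5%) met the rule. With replicate 3 aside the numbers were 204 chosen, 203 under 0, 140 at or under -1 and 128 (62.7%) within the rule. Among all genes kept in each case, 4.07% to 4.48% met the rule in the libraries set aside. The median L of the chosen genes in those libraries was -1.26, -1.31 and -1.16, against -1.29, -1.28 and -1.27 in the libraries that chose them. The fall on methanol thus recurred in libraries that had no part in the choice, while 31.5% to 37.3% of the chosen genes crossed a limit when read in single libraries. These libraries are replicates of the same 4 groups, and the labels name no separate cultures. The recurrence therefore speaks only to how far replicates repeat each other.

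The members stood out on glucose in LA001-14 more than on methanol. The rule fixes how far the strains' methanol responses differ but not whether that comes from a higher level on glucose or a lower one on methanol. It shares its libraries with the strain comparisons, so these counts are descriptions too. On glucose 158 of 190 members (83.2%) were called higher in LA001-14 than in wild type and 9 lower, while 30.9% and 31.7% of all genes tested were. Of the 190 members, 11 reached the minimum mean count of the choice only through LA001-14 on glucose. Among the 158 called higher are 6 of these 11, and their high level there is not independent of their being kept. At least 2-fold higher on glucose were 74 members (38.9%), against 7.67% of all genes. On methanol 25 members were called higher and 69 (36.3%) lower in LA001-14, against 32.8% and 32.9% of all genes, so the share lower on methanol was near that of the whole table. At least 2-fold lower on methanol were 24 members (12.6%), against 11.1% of all genes.

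The median log2 difference between the strains was 0.90 on glucose, or 1.86-fold, and -0.12 on methanol over the 190 members, while over all genes tested it was 0.01 and 0.00. In size, the glucose difference was the larger for 151 members and the methanol difference for 39. Counts on methanol moved with the scaling: with library totals in place of TMM 56 members (29.5%) were called higher and 40 (21.1%) lower, against 47.2% and 20.6% of all genes. Library totals raised the median strain difference of all genes to 0.23 on glucose and 0.28 on methanol. Relative to that median the members stood at 0.88 on glucose and -0.12 on methanol, the same as under TMM at the precision given. Without wild type on methanol replicate 3, the members called higher on methanol numbered 16 (8.42%), against 29.9% of all genes. Without wild type on glucose replicate 1, 158 members were higher and 9 lower on glucose, against 33.6% and 29.0% of all genes. On methanol 28 were higher and 70 lower there, against 34.7% and 32.7% of all genes.

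Genes chosen on 2 replicate numbers were again mostly higher in LA001-14 on glucose in the libraries set aside, while on methanol they were divided. On glucose, relative to the median of all kept genes, LA001-14 lay above wild type for 181 of 198, 162 of 181 and 177 of 204 chosen genes, with median log2 differences of 0.77, 0.83 and 0.82. On methanol it lay below wild type for 119, 112 and 104 of them and above for 79, 69 and 100, with medians of -0.14, -0.11 and -0.01. With replicate 3 aside the methanol split was thus nearly even. These are values in single libraries and carry no test.

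**Figure D2:**
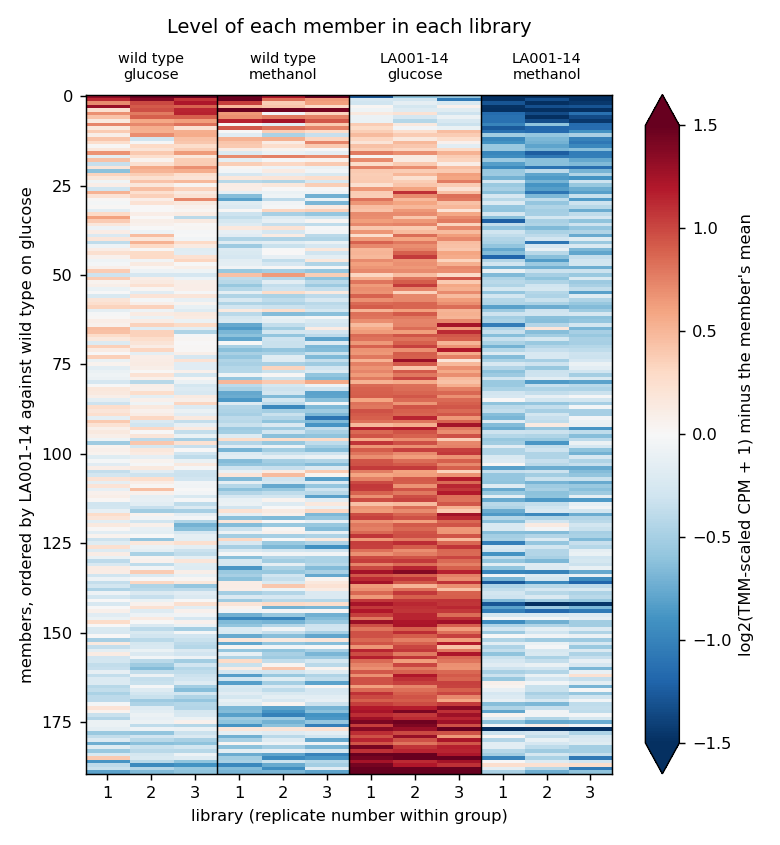
Level of the 190 members (rows, ordered by the strain difference on glucose) in the 12 libraries (columns), as log2(TMM-scaled CPM + 1) minus the mean of the member, from blue (low) to red (high). The 3 LA001-14 glucose libraries are red for nearly all rows below the top few, and the top rows are instead high in wild type and lowest in LA001-14 on methanol.

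Taking libraries one by one, the 3 LA001-14 glucose libraries lay above the other 9 for 154 members (81.1%), an order found in 17.1% of all genes tested. The 3 LA001-14 methanol libraries lay below the other 9 for 58 members (30.5%), against 5.05% of all genes. Both orders held for 29 members (15.3%) and neither for 7 (3.68%), against 0.878% and 78.7% of all genes. These orders follow in part from the choice, which asks for a gap between these 2 groups.

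By their calls on the carbon sources, the members fell into 6 of the 9 possible forms. The most frequent form, with 90 members (47.4%), was higher on glucose in LA001-14 with no call on methanol, and its median strain difference was 0.93 on glucose and -0.02 on methanol (log2). It held 9.46% of all genes tested. A further 43 members (22.6%) were higher on glucose and lower on methanol, against 7.39% of all genes, with medians of 0.94 and -0.63. In these 43 the wild-type methanol change had a median of 0.14, whereas in the 90 it was -0.41. The strain difference was called higher on both carbon sources for 25 members (13.2%), near the 14.1% of all genes, and their medians were 1.14 on glucose and 0.44 on methanol. In this group the median log2 change on methanol was -0.57 in wild type and -1.16 in LA001-14. LA001-14 was higher on both carbon sources by the calls that define the group.

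A call on methanol alone was made for 17 members (8.95%), all lower in LA001-14, with a median of -0.95, against 11.3% of all genes lower on methanol alone. Another 9 members (4.74%) were lower in LA001-14 on both carbon sources, against 14.3% of all genes, with medians of -0.98 on glucose and -2.23 on methanol. No call on either carbon source was made for 6 members (3.16%), against 15.9% of all genes. No member was lower on glucose and higher on methanol, a form for which the rule leaves no room and that 8.51% of all genes tested showed. Among members the call on methanol varied with the wild-type response, as the arithmetic of the rule favours. Of the 21 members called higher on methanol in wild type, 19 were lower in LA001-14 on methanol. Of the 91 called lower in wild type, 13 were. On glucose 17 of those 21, and 78 of those 91, were higher in LA001-14. Among the 78 members not called in wild type, 37 were lower in LA001-14 on methanol and 63 higher on glucose. Shares among all genes with the same wild-type call are not given here, so these counts only describe the members.

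**Figure D3:**
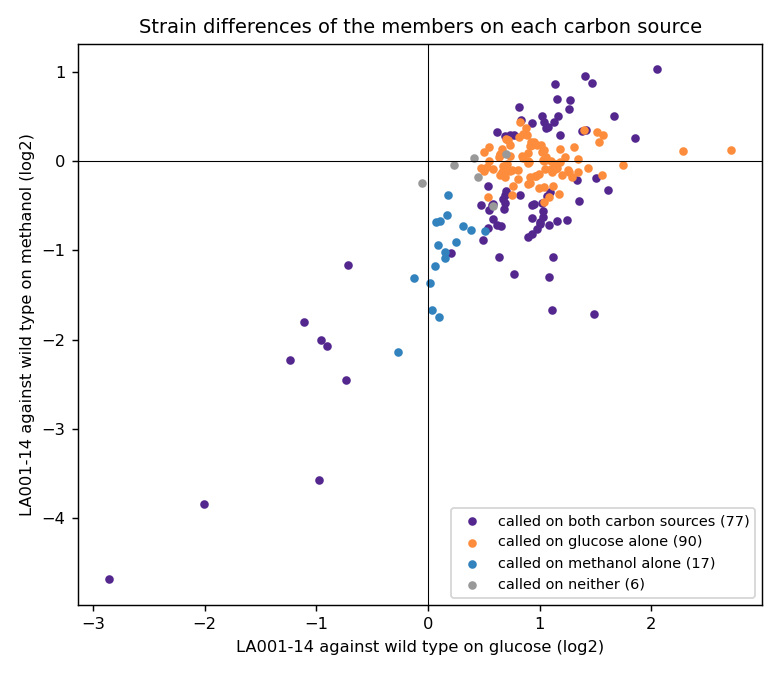
Log2 difference of LA001-14 from wild type on glucose (horizontal axis) and on methanol (vertical axis) for each of the 190 members, coloured by the carbon sources on which edgeR called the difference. Most points lie right of 0 and near 0 on the vertical axis (90 called on glucose alone), 77 were called on both carbon sources, and a tail of 9 members reaches down to the lower left.

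The rule did not use the strain difference averaged over glucose and methanol, a contrast orthogonal to both methanol responses. Its values come from the same libraries as L and W, so the counts below describe the members and are not independent support. By this contrast 115 of 190 members (60.5%) were called higher in LA001-14 and 25 (13.2%) lower, against 33.5% and 34.5% of all genes tested. The median was 0.35 on the log2 scale over the members and -0.01 over all genes, and 151 members lay above the median of all genes. With library totals the median of all genes moved to 0.24, the members' median relative to it was 0.36, and 148 members (77.9%) were called higher and 19 (10.0%) lower, against 50.6% and 20.7% of all genes. Without wild type on glucose replicate 1 the counts were 125 (65.8%) and 25 (13.2%), against 36.9% and 32.9% of all genes. Of the 190 members, 4 reached a mean of 50 reads only through wild type, and all 4 are among the 25 called lower. Another 7 reached it only through LA001-14, and 3 of them are among the 115 called higher. Few members differed on average by 2-fold or more, 8 higher (4.21%) and 9 lower (4.74%), against 5.85% and 6.97% of all genes.

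A higher average level in LA001-14 was not particular to these members. Among the 298 genes that fell in both strains 231 (77.5%) were called higher on average and 33 lower, with a median of 0.80. Among the 47 genes that fell in LA001-14 and rose in wild type 8 were called higher and 30 (63.8%) lower, with a median of -0.42. The higher level on glucose was shared by all 3 sets, at 83.2%, 72.8% and 74.5% of genes called. All 3 sets were chosen for a fall from glucose to methanol in LA001-14. On methanol the sets parted, with 13.2%, 71.8% and 0% called higher and 36.3%, 10.1% and 100% called lower, which follows from the wild-type limits that define them. No test of these differences between sets was made.

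Together the members took a larger share of the raw counts in LA001-14 on glucose than in any other group, and the gap between the LA001-14 groups is set by the rule. Their share was 1.55%, 1.51% and 1.49% in wild type on glucose and 1.38%, 1.43% and 1.40% in wild type on methanol. In LA001-14 it was 3.41%, 3.48% and 3.43% on glucose and 1.02%, 1.06% and 1.05% on methanol. The LA001-14 glucose libraries lay above all others and the LA001-14 methanol libraries below all others. The 2 wild-type groups did not overlap in this share, but in summed TMM-scaled CPM they did, at 15024 to 16447 on glucose and 15727 to 16363 on methanol. A single gene, CB3168.t1, supplied 0.816% ± 0.020 of the counts in LA001-14 on glucose (SD, n = 3). Without it the shares were 1.19% ± 0.065 and 1.06% ± 0.018 in wild type on glucose and methanol, and 2.62% ± 0.044 and 0.912% ± 0.025 in LA001-14.

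**Figure D4:**
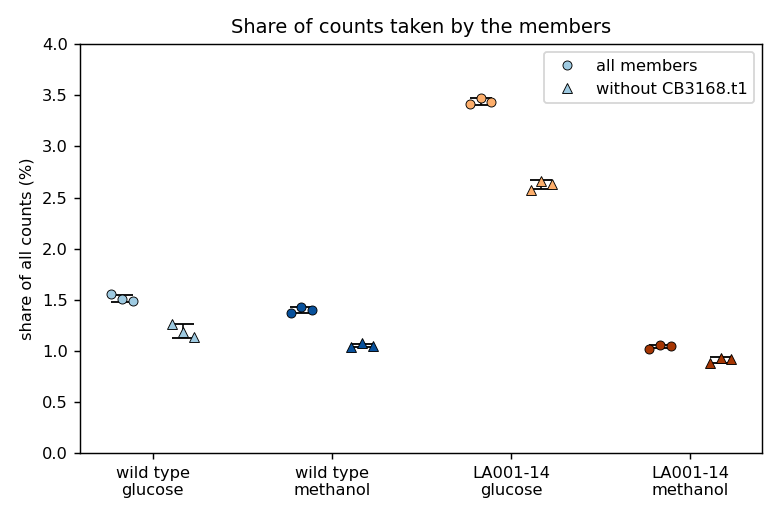
Share of all counted reads (percent, vertical axis) taken by the 190 members (circles) and by the members without CB3168.t1 (triangles) in each of the 12 libraries, by group; bars show the mean ± SD of 3 libraries. The 3 LA001-14 glucose libraries stand at 3.41% to 3.48%, above all others, and the LA001-14 methanol libraries are lowest.

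Per coding length, the typical member was expressed below the typical gene except in LA001-14 on glucose. The median of the authors' FPKM (reads scaled by coding length and by the library total) over the members was 23.5 in wild type on glucose, 19.2 in wild type on methanol, 48.1 in LA001-14 on glucose and 18.7 in LA001-14 on methanol. Over the 5034 kept genes these medians were 34.1, 33.6, 40.5 and 39.3. Mean FPKM over all libraries spanned 1.44 to 3743 among the members, with a median of 27.2 against 39.4 for the kept genes. Coding lengths were similar, with a median of 1460 bases (1459.5 unrounded; quartiles 949.5 and 2181) against 1467 (906 and 2329.5). The spread between replicates was slightly wider among members than among kept genes, with a median coefficient of variation of 11.1% against 9.47% in wild type on glucose, 8.80% against 6.92% in wild type on methanol, 9.30% against 8.76% in LA001-14 on glucose and 9.34% against 7.28% in LA001-14 on methanol. Consecutive identifiers joined 22 members in 11 pairs, or 11.6% of members, while 6.73% of kept genes had an identifier next to that of a member. The sources used here do not say whether the numbering follows the chromosomes.

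The largest falls in LA001-14 were those of CB3243.t1 and CB2304.t1, taken here by lowest L as a description. CB3243.t1 (coding length 1386 bases) stood at 492, 511 and 508 CPM (TMM-scaled, as for all levels below) in wild type on glucose and at 612, 618 and 632 on methanol. In LA001-14 it stood at 1391, 1326 and 1523 CPM on glucose and 186, 192 and 191 on methanol. No 2 groups overlapped, and LA001-14 was the highest group on glucose and the lowest on methanol. Its log2 change on methanol was -2.90 (SE 0.060) in LA001-14 and 0.30 (SE 0.022) in wild type, and it differed between the strains by 1.49 (SE 0.061) on glucose and -1.71 (SE 0.019) on methanol. It is thus one of the 43 members that were higher on glucose and lower on methanol.

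CB2304.t1 (945 bases) showed the glucose form almost purely. It stood at 344, 378 and 393 CPM in wild type on glucose, 370, 372 and 345 in wild type on methanol, and 426, 361 and 395 in LA001-14 on methanol, 3 groups that overlapped. In LA001-14 on glucose it reached 2626, 2371 and 2337 CPM. The strain difference of CB2304.t1 was 2.72 on the log2 scale (SE 0.078) on glucose, the largest among the members, and 0.12 (SE 0.078) on methanol, which did not pass the test (edgeR adjusted p = 0.20 with TMM). With library totals the median of all genes moved to 0.28 on methanol, and there the methanol difference of CB2304.t1 was 0.40 and passed the test. Averaged over the carbon sources it was 1.42 (SE 0.055), nearly all of it from the glucose difference. The LA001-14 glucose libraries that set this average also set the low L of CB2304.t1, so it is given as a description with no p. By mean FPKM it ranked second among the members and 178 among the kept genes, rising to rank 66 in LA001-14 on glucose from 364 in wild type.

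CB3168.t1 (1080 bases) was the most abundant member per coding length. Its FPKM was 2984 ± 286 in wild type on glucose, 3211 ± 125 in wild type on methanol, 7554 ± 183 in LA001-14 on glucose and 1223 ± 58.9 in LA001-14 on methanol (SD, n = 3 each). Among the kept genes it ranked 77, 37, 10 and 158 in these groups. In TMM-scaled CPM the wild-type glucose libraries stood at 2806, 3463 and 3894 and the methanol libraries at 3790, 4074 and 3970, which overlapped. The LA001-14 libraries stood at 7811, 7253 and 6938 on glucose and 1354, 1159 and 1206 on methanol, above and below every wild-type library. The strain difference of CB3168.t1 was 1.11 (SE 0.15) on glucose and -1.67 (SE 0.074) on methanol.

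CB0185.t1 (1095 bases) was second to CB2304.t1 in the strain difference on glucose and was a weakly expressed gene. It had 3.96, 3.60 and 3.20 CPM in wild type on glucose, 2.96, 2.26 and 4.54 in wild type on methanol and 4.62, 3.66 and 2.00 in LA001-14 on methanol. In LA001-14 on glucose it had 18.6, 17.6 and 16.7 CPM, above every other library, while the other 3 groups overlapped. The strain difference on glucose was 2.29 (SE 0.095). The values of CB0185.t1 outside LA001-14 on glucose rest on 18 to 67 reads a library. It reached a mean of 50 reads over the 12 libraries only through LA001-14 on glucose, with a mean of 35.4 reads in the other 9, so its high level there is not independent of its being kept.

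Averaged over the carbon sources, the largest positive strain differences among members whose strains did not overlap on either carbon source were those of CB2723.t1 and CB3890.t1. Called and not overlapping in this way were 31 members higher (16.3%) and 9 lower (4.74%), against 15.1% and 15.0% of all genes tested, so the share higher was near that of the whole table. CB2723.t1 (1005 bases) stood at 14.9, 9.76 and 10.2 CPM in wild type on glucose and 9.73, 11.4 and 13.7 on methanol, which overlapped. In LA001-14 it stood at 55.4, 46.8 and 43.5 CPM on glucose and 23.9, 23.5 and 24.1 on methanol, above wild type on both. Its average difference was 1.54 (SE 0.13), made up of 2.05 on glucose and 1.03 on methanol. The LA001-14 libraries behind this average also set its L, and it was picked for this difference, so no p is given. CB2723.t1 was the 1 member (0.526%) called at least 2-fold higher on methanol in LA001-14, against 9.73% of all genes tested.

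CB3890.t1 (1587 bases) also fell in wild type. It went from 19.0, 22.6 and 20.3 CPM on glucose to 13.3, 11.4 and 12.5 on methanol in wild type, and from 53.3, 51.2 and 59.5 to 24.9, 23.1 and 23.5 in LA001-14. The LA001-14 libraries on methanol lay above all 6 wild-type libraries. Its average strain difference was 1.18 (SE 0.060), given with no p for the same reasons as for CB2723.t1. The methanol change of CB3890.t1 was -0.74 (SE 0.097) in wild type and -1.19 (SE 0.072) in LA001-14. The interaction of CB3890.t1 was -0.46, and it lost the call in 9 of 18 other settings. The rule chose the members on these same responses, so this value is a description and is given with no p.

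The largest negative average differences belonged to CB4312.t1 and CB3267.t1, both of which were low in LA001-14 on either carbon source. Both reached a mean of 50 reads only through wild type, with means of 30.0 and 17.7 reads in LA001-14 against 289.5 and 97.7, so their values are given as a description with no p. CB4312.t1 (3111 bases) stood at 24.4, 40.2 and 39.5 CPM in wild type on glucose and 27.2, 22.3 and 30.6 on methanol. In LA001-14 it stood at 3.11, 5.51 and 5.63 CPM on glucose and 1.52, 1.09 and 0.222 on methanol, the last from 22, 11 and 2 reads. All 6 LA001-14 libraries lay below all 6 wild-type libraries. The average difference was -3.77 (SE 0.36), with -2.85 (SE 0.35) on glucose and -4.69 (SE 0.63) on methanol. Without LA001-14 on methanol replicate 1 the methanol difference of CB4312.t1 was -5.27 and its methanol change in LA001-14 went from -2.21 to -2.79.

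CB3267.t1 (1629 bases) had 10.5, 12.7 and 10.1 CPM in wild type on glucose and 13.7, 8.41 and 7.26 on methanol. It had 3.43, 3.27 and 1.51 CPM in LA001-14 on glucose and 0.345, 1.09 and 0.667 on methanol, the last from 5, 11 and 6 reads. The strains did not overlap on either carbon source, and the 2 wild-type groups did. Its average difference was -2.92 (SE 0.29), and its difference on methanol was -3.84 (SE 0.45).

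**Figure D5:**
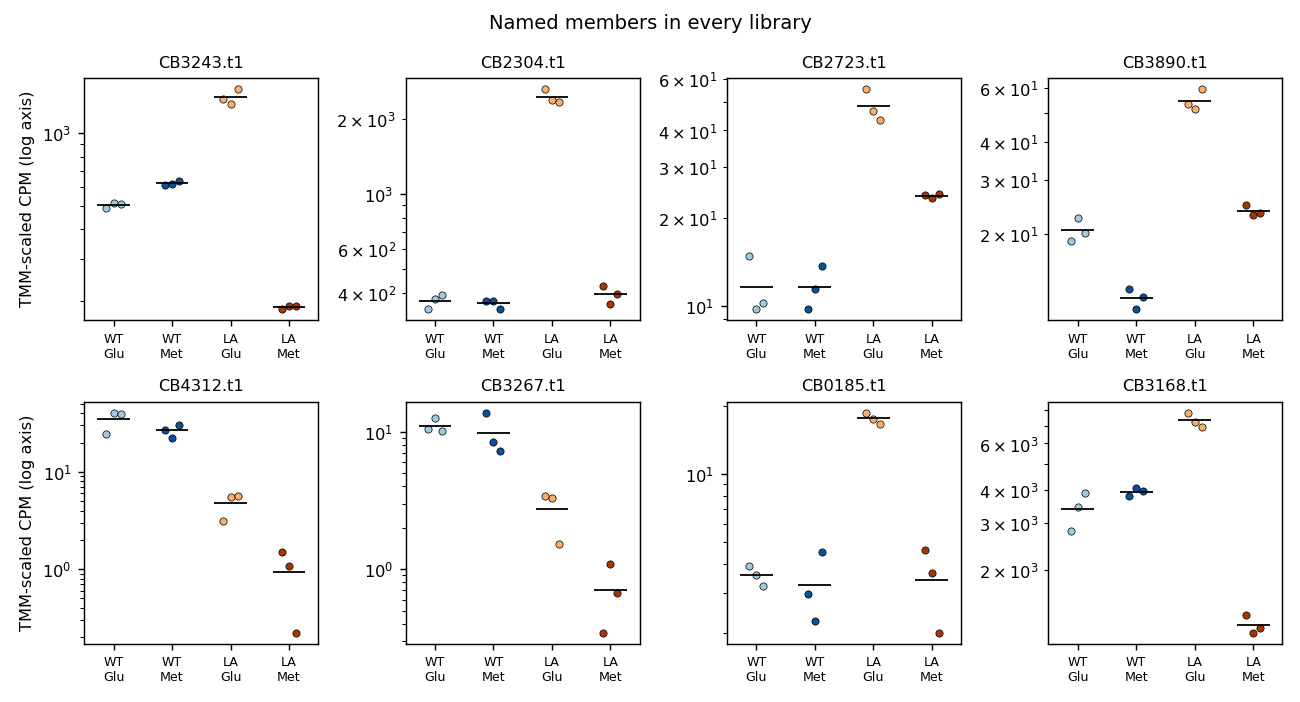
Level of the 8 named members in every library (TMM-scaled CPM, log axis with its own range in each panel), by group (WT wild type, LA LA001-14, Glu glucose, Met methanol); points are libraries and lines the mean of 3. CB2304.t1 and CB0185.t1 are high in LA001-14 on glucose alone, CB3243.t1 and CB3168.t1 are highest there and lowest in LA001-14 on methanol, CB2723.t1 and CB3890.t1 are above wild type on both carbon sources, and CB4312.t1 and CB3267.t1 below.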

How the data were processed

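Per the labels' protocols, total RNA was taken by Trizol and treated with DNase on a column. Each file holds 1 library with coding length, raw read count and FPKM for 5712 rows. The deposited counts are whole reads per coding sequence, not normalized, and the FPKM values were made by the authors, per the file headers. The submitters' processing notes name Bowtie2 2.5.4. How reads were counted, on which build and annotation and with which strand setting, is not given in the sources used here.

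The members, comparisons and settings were chosen with earlier results of these data known. Members were found from library-total CPM by the rule the report states. Counts were fitted in edgeR 4.0.16 (R 4.3.3): filterByExpr (5466 rows kept, all 190 members among them, 246 removed), TMM, 1 mean per group over all 12 libraries, robust quasi-likelihood tests of 6 contrasts, Benjamini-Hochberg adjustment over all rows, calls at 0.05. Standard errors rest on the spread of replicates in log2 CPM, 2 reads added. The fit was repeated with RLE, upper-quartile and library-total scaling, without the filter, in DESeq2 1.42.0, with a replicate block and without each library.

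Named members are the 2 with the lowest L, the 2 with the highest mean FPKM, and for each strain contrast the 2 called members with the largest difference in each direction whose strains did not overlap. The replicates are biological per the labels, which name no separate cultures, so a p-value measures only the spread among these libraries. Depths of 8045977 to 14107813 reads limit the precision of low genes.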

Additional observations from a re-analysis of the deposited data

Results flagged for a closer look

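The methanol response differed between the strains, by the interaction term, for 169 of the 190 members, all lower in LA001-14. It also differed for each of the 8 named members (log2, LA001-14 minus wild type): -3.20 for CB3243.t1, -2.78 for CB3168.t1, -2.60 for CB2304.t1, -2.17 for CB0185.t1, -1.84 for CB3267.t1, -1.83 for CB4312.t1, -1.02 for CB2723.t1 and -0.46 for CB3890.t1. The rule chose the members on these same responses, so the differences describe the choice and are not independent support for it. The value of CB3890.t1 lost its call in 9 of 18 other settings, and that of CB4312.t1 was -2.42 without LA001-14 on methanol replicate 1.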

How the results depend on the processing

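The number of members depended on where the limits were set. A wild-type limit of 0.5 left 115 and an LA001-14 limit of -1.5 left 45, both by construction subsets of the 190. Other settings of the rule gave 141 to 206 genes, with 131 shared at a minimum mean count of 200, 179 at a minimum of 10, 135 with 5 CPM added, 168 without centring and 186 with TMM-scaled CPM. Leaving out 1 library gave 176 to 201 genes. The members called higher on methanol in LA001-14 than in wild type numbered 56 with library totals, against 25 with TMM, and those called lower 40, against 69; these follow from the shift of the median of all genes. Leaving out 1 library gave 16 to 28 higher, the lowest without wild type on methanol replicate 3. The other 8 counts by comparison and direction (average, glucose and wild-type response higher and lower, LA001-14 response and interaction lower) stayed within 1.5 times under the 18 settings run. The counts past 2-fold, by joint calls and by library order were rerun only without wild type on glucose replicate 1, a setting chosen after seeing the data. There the members at least 2-fold lower on methanol in wild type went from 0 to 2, those lower in wild type on methanol and in LA001-14 on glucose from 3 to 5, and those with neither library order from 7 to 4. The replicate numbers did not pair the libraries: deviations from the group means correlated at -0.25 to 0.12 over 18 same-numbered pairs, 1 of them over 0.1, and 2 of 12 libraries correlated best with their own number. With the replicate block 116 members (61.1%) were higher and 24 (12.6%) lower on average, against 33.1% and 33.96% of all genes. On glucose these were 158 (83.2%) and 9 (4.74%), against 30.1% and 30.8% of all genes. On methanol they were 23 (12.1%) and 68 (35.8%), against 32.2% and 32.2%, so the share lower there was near that of all genes. Upper-quartile scaling moved the median wild-type methanol change of all genes from -0.01 to -0.14. There 17 members (8.95%) were called higher and 110 (57.9%) lower, against 29.3% and 41.4% of all genes. Depth limits the low members, of which 2 had under 10 reads in some library.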
